A study of Mus musculus with 6 samples.

Results

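The genes described here are 8 genes of cholesterol synthesis and its control, Srebf2, Insig1, Hmgcs1, Idi1, Fdps, Fdft1, Sqle and Lss. They were chosen by name as sterol genes and found through their Entrez IDs, and all 8 were among the 27179 gene IDs of the count tables and among the 14207 genes with enough counts to test. RNA was sequenced from cultured mouse neural stem cells, which were derived from brains of male embryos at E14.5 (strain C57BL/6 x FVB/N) and grown with EGF and bFGF at 20 ng/ml each. The 3 wild type libraries (Smchd1 wild-type) were compared with 3 libraries homozygous for the MommeD1 allele of Smchd1, labelled Smchd1 null, a gene for a chromatin protein needed for silencing at the inactive X chromosome and at some autosomal gene clusters. The allele is carried by the whole animal rather than deleted by Cre, so the cells had lacked the intact gene since before derivation.

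Cells make cholesterol from acetyl-CoA through the mevalonate pathway, a chain of enzymes in the cytosol and endoplasmic reticulum. When membrane sterol is low, SREBP-2, the product of Srebf2, is escorted by SCAP to the Golgi, is cut by proteases, and its released part switches on nearly every gene of the pathway. When sterol is high, INSIG proteins hold SCAP and SREBP-2 in the endoplasmic reticulum, and transcription of the pathway falls. The brain takes up little cholesterol from blood and depends on its own synthesis, and oligodendrocytes need much of it for myelin.

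The stretch before the start of the gene is where SREBP-2 and its partner NF-Y are known to act on this pathway, so 3 promoters are shown: those of the regulator Srebf2, of Hmgcs1, the most abundant of the genes, and of Insig1, the one with the largest difference between the groups. The RefSeq table used here (GRCm38.p6, the assembly of mm10) gave promoters for 5 of the 8 genes (Srebf2, Hmgcs1, Idi1, Lss and Insig1), all on the plus strand. Each sequence is the 250 bases before the annotated start, at chr15:82147019-82147268 for Srebf2, chr13:119690101-119690350 for Hmgcs1 and chr5:28071162-28071411 for Insig1. Capitals mark matches, on either strand, to the NF-Y motif CCAAT, to the sterol element TCACNCCAC and to the E-box motif CACGTG. Every NF-Y match here lies on the opposite strand and therefore reads ATTGG.
Srebf2: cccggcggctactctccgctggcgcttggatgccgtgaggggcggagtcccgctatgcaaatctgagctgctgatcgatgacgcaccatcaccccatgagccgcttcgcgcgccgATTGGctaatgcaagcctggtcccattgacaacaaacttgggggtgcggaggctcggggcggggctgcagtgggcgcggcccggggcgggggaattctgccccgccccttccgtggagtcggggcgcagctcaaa
Hmgcs1: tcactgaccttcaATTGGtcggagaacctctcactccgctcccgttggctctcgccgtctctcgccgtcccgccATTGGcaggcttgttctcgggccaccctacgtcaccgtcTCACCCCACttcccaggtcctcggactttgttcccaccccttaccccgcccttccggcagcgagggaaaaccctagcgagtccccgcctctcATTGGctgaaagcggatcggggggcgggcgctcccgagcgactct
Insig1: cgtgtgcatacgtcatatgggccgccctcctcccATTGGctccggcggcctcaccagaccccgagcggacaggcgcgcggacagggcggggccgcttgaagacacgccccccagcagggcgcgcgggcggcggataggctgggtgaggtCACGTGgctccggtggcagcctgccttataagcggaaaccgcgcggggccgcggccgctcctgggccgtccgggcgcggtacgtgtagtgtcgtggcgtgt
Each of the 5 promoters held at least 1 NF-Y motif, which was present in 33.8% of all 32851 promoter windows of this length in the table. In Hmgcs1 it occurred 3 times, in Idi1 2 times, and in Srebf2, Lss and Insig1 once each. Among the 5, the sterol element was matched only in Hmgcs1, from 137 to 129 bases before the start, and it was present in 1.05% of all windows. The E-box was matched only in Insig1 among the 5, from 101 to 96 bases before the start, against 6.02% of all windows. Of the 33 further sterol genes described below, 27 had a promoter in the table, and 0 of these matched the sterol element. Only exact matches to the motif were marked, so a promoter without capitals there may still hold a variant of it. These are matches of letters in a short window, and binding was not measured.

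Library totals ran from 18608881 to 23253367 counts. Wild type replicate 3 stood apart: 1 record (Entrez gene 100861531) took 44.6% of its counts against 2.11% to 5.90% elsewhere, and its effective depth after TMM scaling was 10.1 M counts against 21.3 to 25.8 M in the others. Its sample name carries the number 14, next to 11 to 13 of the null libraries, while wild type replicates 1 and 2 carry numbers above 100. In any fit without wild type replicate 3, genotype and sample-name number therefore coincide and cannot be told apart. With a term for the sample-name numbers, or in the libraries named 11 to 14 only, the genotype contrast rests on wild type replicate 3 alone against the null libraries. What these numbers stand for is not given in the labels, and nothing there says that replicates came from separate animals or derivations, so the p-values below rest on differences among these 6 libraries that could be technical. Smchd1 matched the labels, at 271, 260 and 232 CPM (counts scaled by TMM to a library of 1 M) in wild type replicates 1 to 3 and at 30.3, 31.1 and 27.9 in null replicates 1 to 3. The summed level of 8 neural stem cell markers, among them Nes and Sox2, was 5017 to 5575 CPM in wild type and 5040 to 5189 CPM in null, while the 7 microglial markers together stayed at or below 2.90 CPM, with Itgam, Tmem119 and C1qa at 0 counts in all 6 libraries, and the 5 vessel markers at or below 3.27 CPM, with Cdh5 at 0.

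The cholesterol genes were strongly expressed in both groups. Their mean CPM in null differed from that in wild type by -0.044% (Idi1) to -20.0% (Insig1). The intervals were wide, reaching down to 0.649 times the wild type level for Insig1, so a missing call does not show equal levels. None of the 8 passed the threshold (adjusted p of 0.05, edgeR quasi-likelihood test with Benjamini-Hochberg adjustment over all tested genes), which 82 of 14207 tested genes passed (0.577%). At an unadjusted p under 0.05 there were 2 of 8, Sqle and Insig1, against 18.6% of all tested genes. DESeq2 and limma-voom called 0 of the 8, against 2.82% and 0.894% of all genes. Limma-voom with sample quality weights called 3, Sqle, Fdps and Insig1, all lower in null. That fit called 36.4% of all genes, with 2468 of 14207 called lower in null. The 8 log2 fold changes (null minus wild type) ran from -0.32 to -0.0055 with a median of -0.086, while the median over all tested genes was 0.0013. All 8 were thus below 0 in this fit, as were 49.7% of all tested genes, but a stricter filter, the replicate block, leaving out wild type replicate 1 or leaving out null replicate 3 turned Idi1, and a term for the sample-name numbers, or keeping only the libraries named 11 to 14, turned Hmgcs1, Idi1, Fdps, Lss and Insig1. With the sample-name term 0 of the 8 passed, against 1.31% of all genes. Each gene had at least 602 counts in every library, so counting error alone was at most 4.08% of a value. In cultures measured in bulk, fewer cells of a type and less RNA per cell cannot be told apart.

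**Figure D1:**
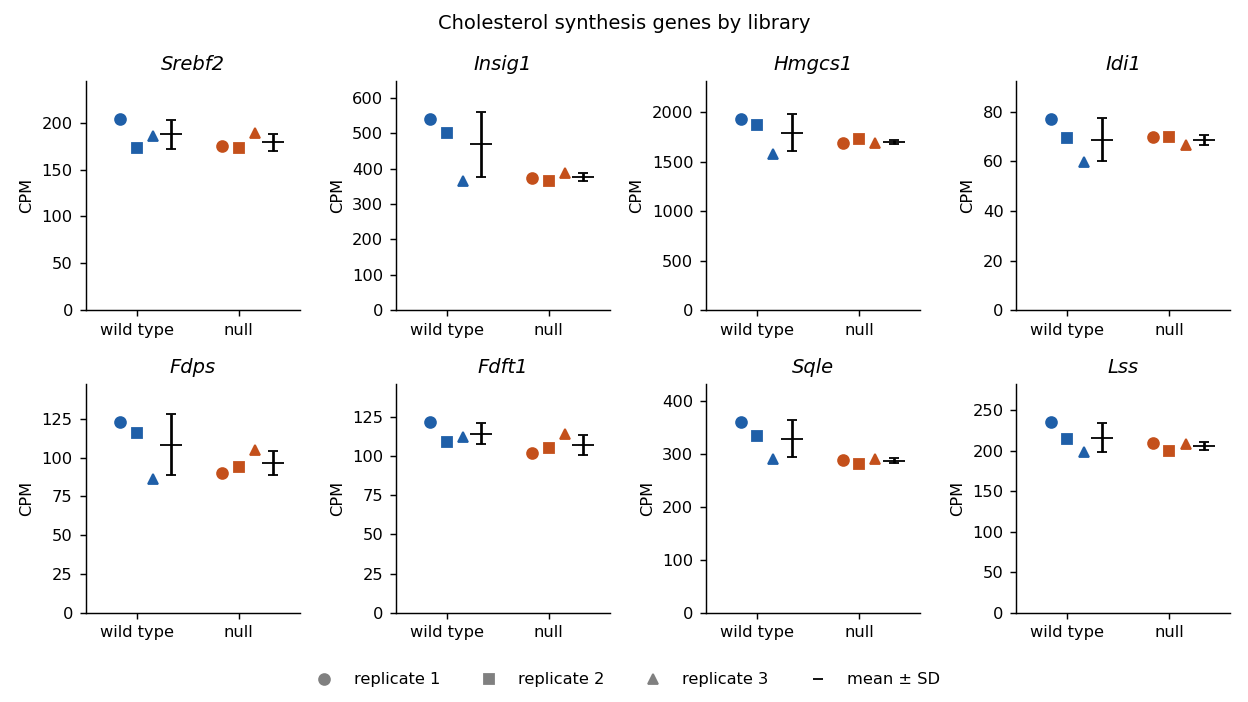
Expression of the 8 genes in every library, in CPM scaled by TMM (y axis from 0), with wild type in blue and null in orange, 1 symbol per replicate, and the mean ± SD (n = 3) in black. Wild type replicate 1 is the highest of the 6 libraries for all 8 genes, wild type replicate 3 lies below all null libraries for 4 genes, within their range for 3 and above them for 1 (Sqle).

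Srebf2 (Entrez 20788, chromosome 15, 82147269 to 82205379, mm10), which encodes the transcription factor SREBP-2, had 204, 173 and 186 CPM in wild type replicates 1 to 3 and 175, 173 and 189 CPM in null replicates 1 to 3. The groups overlapped throughout. The means were 188 ± 15.2 CPM and 179 ± 8.83 CPM (SD, n = 3). On the log2 scale the difference was -0.069 ± 0.078 (SE), with a 95% interval of -0.25 to 0.11 and an adjusted p of 0.626 from the edgeR test. As a ratio the interval runs from 0.843 to 1.08 times the wild type level. Over the 16 alternatives the value stayed between -0.13 and -0.0074 and passed the threshold in none of them. The microRNA gene Mir33 lies within Srebf2 and had at most 1 count in a library.

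Insig1 (Entrez 231070, chromosome 5, 28071412 to 28078662), whose product retains SCAP and SREBP-2 in the endoplasmic reticulum and is itself a target of SREBP-2, differed most. Its levels were 539, 501 and 366 CPM in wild type replicates 1 to 3 and 372, 365 and 387 CPM in null replicates 1 to 3. Wild type replicates 1 and 2 lay well above every null library, and wild type replicate 3 lay inside the null range. Over all 6 libraries the log2 fold change was -0.32 ± 0.13 (SE), with a 95% interval of -0.62 to -0.023 and an adjusted p of 0.249 in the edgeR test. Leaving out wild type replicate 3 gave a fit in which genotype and sample-name number coincide and 39.2% of all genes were called. There the log2 fold change was -0.48 ± 0.05, a level 1.39-fold higher in wild type, with an adjusted p of 1.31e-06 (edgeR). With the sample-name term it was 0.036 (95% interval -0.10 to 0.17), and its adjusted p ran from 1.31e-06 to 0.873 over the 16 alternatives. An annotated noncoding gene, Gm35223, covers 7251 bases of Insig1 and was not among the counted gene IDs. Whether reads of Gm35223 entered the Insig1 counts was not tested.

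The ratio of Insig1 counts to Srebf2 counts within a library does not depend on how libraries are scaled. It was 2.65, 2.89 and 1.97 in wild type replicates 1 to 3, and 2.13, 2.11 and 2.05 in null replicates 1 to 3. The null ratios fell between the ratios of wild type replicate 3 and of the other wild type libraries, and they spread less, with 2.10 ± 0.042 in null and 2.50 ± 0.48 in wild type (SD, n = 3). The ratio of Fdft1 to Srebf2 counts, by contrast, was even in all libraries, from 0.583 to 0.628.

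Hmgcs1 (Entrez 208715, chromosome 13, 119690351 to 119708260) encodes the cytosolic HMG-CoA synthase, an early step on the way to mevalonate. It had 1932, 1875 and 1584 CPM in wild type replicates 1 to 3 and 1691, 1729 and 1691 CPM in null replicates 1 to 3. Wild type replicates 1 and 2 lay above all null libraries and wild type replicate 3 below all of them. The log2 fold change was -0.077 ± 0.091 (SE; 95% interval -0.28 to 0.13; adjusted p = 0.643, edgeR). Without wild type replicate 3 it was -0.16 and passed (adjusted p = 0.012), and with the sample-name term it was 0.11 and did not (adjusted p = 0.495), within a range of adjusted p from 0.012 to 0.943 over the alternatives.

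Idi1 and Fdps act next among the 8, forming and joining the isoprene units that also feed ubiquinone, dolichol and protein prenylation. Idi1 (Entrez 319554, chromosome 13, 8885606 to 8892396), the isopentenyl diphosphate isomerase, had 76.9, 69.3 and 59.7 CPM in wild type replicates 1 to 3 and 69.7, 69.8 and 66.4 CPM in null replicates 1 to 3. The null libraries lay inside the wild type range, and the group means were nearly equal, at 68.7 ± 8.62 and 68.6 ± 1.94 CPM (SD, n = 3). Its log2 fold change of -0.0055 had a 95% interval of -0.22 to 0.21 and an adjusted p of 0.977 in the edgeR test. With the sample-name term it was 0.20 (95% interval 0.016 to 0.38, adjusted p = 0.335), the largest positive value among the 8 genes in that fit.

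Fdps (Entrez 110196, chromosome 3, 89093588 to 89101967), the farnesyl diphosphate synthase, had 123.1, 116 and 86.0 CPM in wild type replicates 1 to 3 and 90.2, 93.7 and 105 CPM in null replicates 1 to 3. As for Hmgcs1, the null libraries lay between wild type replicate 3 and the other wild type libraries. The log2 fold change was -0.18 ± 0.13 (SE; 95% interval -0.47 to 0.12; adjusted p = 0.46, edgeR). It passed without wild type replicate 3 (-0.32, adjusted p = 0.000797), where wild type stood 1.24-fold higher, and it was 0.16 with the sample-name term (adjusted p = 0.458), with adjusted p values from 0.000797 to 0.856 over the alternatives.

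Fdft1, Sqle and Lss carry the chain from farnesyl diphosphate to the first sterol. Fdft1 (Entrez 14137, chromosome 14, 63145150 to 63181687), the squalene synthase, had 122, 109 and 112 CPM in wild type replicates 1 to 3 and 102, 105 and 113.9 CPM in null replicates 1 to 3. Its groups overlapped, and it did not pass in any of the 16 alternatives (log2 fold change -0.096 ± 0.071, SE; 95% interval -0.26 to 0.067). Fdft1 overlaps Ctsb by 774 bases, and the kit does not mark strand, so reads there could belong to either gene.

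Sqle (Entrez 20775, chromosome 15, 59315092 to 59331193), the squalene epoxidase and a rate-limiting step, was the only one of the 8 whose groups did not overlap. It had 360, 334 and 291 CPM in wild type replicates 1 to 3 and 289, 281 and 290.0 CPM in null replicates 1 to 3. The gap between wild type replicate 3 and the highest null library was small beside the distance of that replicate from wild type replicates 1 and 2. Groups with null below wild type and no overlap made up 10.6% of all tested genes, so 1 of 8 is close to the background. The log2 fold change was -0.20 ± 0.08 (SE; 95% interval -0.39 to -0.0044; adjusted p = 0.261, edgeR), a level 1.15-fold higher in wild type. It passed without wild type replicate 3 (-0.28, adjusted p = 0.000251) and was -0.021 with the sample-name term (adjusted p = 0.926), the lowest and highest adjusted p over the alternatives.

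Lss (Entrez 16987, chromosome 10, 76531565 to 76557139), the lanosterol synthase that closes the sterol rings, had 236, 214 and 199 CPM in wild type replicates 1 to 3 and 210, 200.3 and 208 CPM in null replicates 1 to 3. Wild type replicate 3 was again the lowest library. The log2 fold change was -0.070 ± 0.076 (SE; 95% interval -0.24 to 0.10; adjusted p = 0.612, edgeR), and without wild type replicate 3 it was -0.13 (adjusted p = 0.0542, the smallest over the 16 alternatives, the largest being 0.983). A noncoding gene, 4930483K19Rik, overlaps Lss and had 69 to 288 counts per library, against 2006 to 6080 for Lss.

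**Figure D2:**
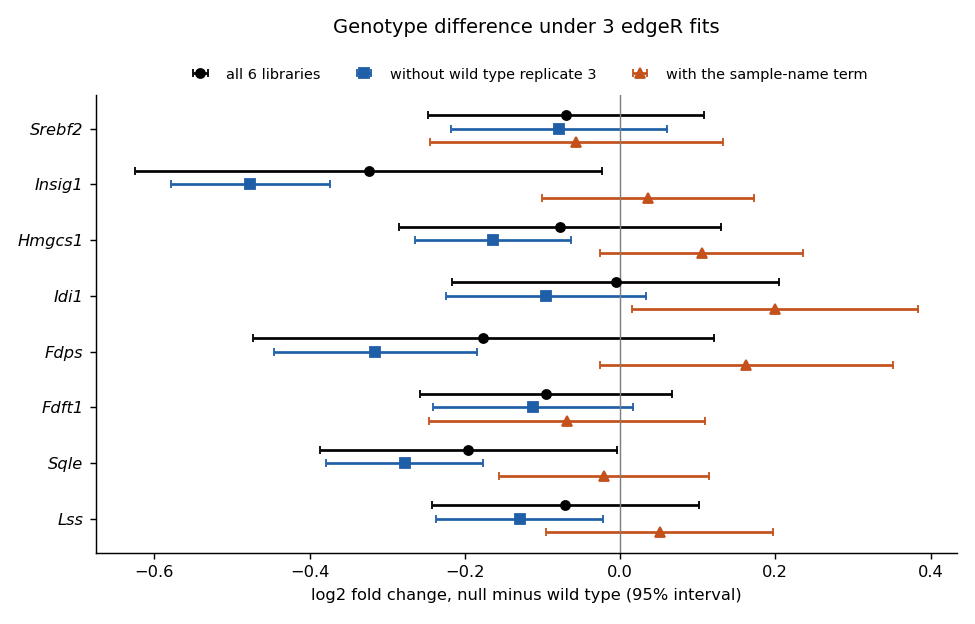
Log2 fold change (null minus wild type, x axis) of the 8 genes with its 95% interval in 3 edgeR fits: all 6 libraries (black circles), without wild type replicate 3 (blue squares) and with a term for the sample-name numbers (orange triangles). The black values all lie at or below 0, the blue ones lie further below 0 for all 8 genes, and 5 of the 8 orange ones lie above 0, while those of Srebf2 and Fdft1 hardly move.

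Across the 8 genes the wild type libraries thus held most of the variation. Wild type replicate 1 had the highest value of the 6 libraries for 8 of 8, as it had for 20.1% of all tested genes. Wild type replicates 1 and 2 both lay above every null library for 5 of 8 (Hmgcs1, Sqle, Fdps, Lss and Insig1), against 30.1% of all tested genes. Wild type replicate 3 lay above them for 1, within their range for 3 and below them for 4, against 33.2%, 34% and 32.8% of all tested genes. Wild type replicate 3 was lower than the mean log2 level of replicates 1 and 2 for 8 of 8, against 48.9% of all tested genes, and the median of this difference was -0.26 on the log2 scale, larger in size than the median difference between genotypes. The coefficient of variation in wild type exceeded that in null for 8 of 8, as it did for 76.4% of all tested genes, with medians over the 8 of 10.5% in wild type and 2.92% in null.

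Summed over the 8 genes, the level was 3593, 3391 and 2883 CPM in wild type replicates 1 to 3 and 2999, 3017 and 3051 CPM in null replicates 1 to 3. The null libraries again lay between wild type replicate 3 and the other wild type libraries. The summed markers of glial lineages ran the other way over the same libraries. The 9 oligodendrocyte lineage markers summed to 1218, 1122 and 1610.0 CPM in wild type replicates 1 to 3 and to 1436 to 1517 CPM in null, with Pdgfra, a receptor of oligodendrocyte precursors, at 17.1 and 18.3 CPM in wild type replicates 1 and 2 against 167 CPM in replicate 3 and 112.6 to 137 CPM in null. None of the 9 was at 0 in all libraries, and the myelin genes Mbp and Mog stayed at or below 2.18 CPM. The 7 astrocyte markers summed to 737, 794 and 1038 CPM in wild type and 917 to 949 CPM in null, and the 8 neuronal markers to 1091 to 1142 CPM in wild type and 1005 to 1034 CPM in null. Single markers did not all follow their sums. The level in wild type replicate 3 was above the mean log2 level of replicates 1 and 2 for 9 of 9 oligodendrocyte lineage markers, for 6 of 7 astrocyte markers and for 4 of 7 tested neuronal markers. The exception among the astrocyte markers was Gja1, a gap junction gene, at 91.1, 106 and 60.2 CPM in wild type replicates 1 to 3 and 51.9 to 55.5 CPM in null. The neuronal sum was mostly Map2, a microtubule protein gene at 967 to 1101 CPM, while Dcx, a gene of young neurons, had 0.814, 0.384 and 5.56 CPM in wild type replicates 1 to 3 and 3.19 to 4.15 CPM in null. Nefl, a neurofilament gene, was the only marker called, at 0.543, 0.725 and 0.893 CPM in wild type replicates 1 to 3 and 2.82, 1.97 and 2.90 CPM in null replicates 1 to 3 (log2 fold change 1.89 ± 0.28, adjusted p = 0.0228, edgeR). That call was lost with the replicate block (adjusted p = 0.0742), with the sample-name term (0.137), in the libraries named 11 to 14 only (0.0694), without wild type replicate 1 (0.159) or 2 (0.121) and without null replicate 1 (0.167) or 3 (0.174), while the log2 fold change stayed between 1.51 and 2.04 over the 15 alternatives that tested the gene. The part of these markers, of depth and of the sample-name numbers in the values of the cholesterol genes was not tested.

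**Figure D3:**
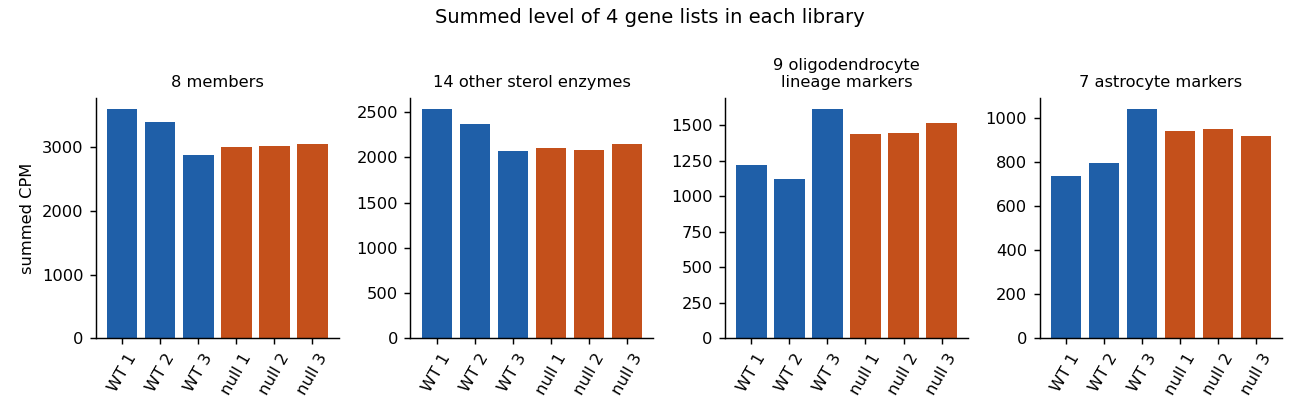
Summed level in CPM (y axes from 0, separate for each panel) of the 8 cholesterol genes, 14 other sterol enzymes, 9 oligodendrocyte lineage markers and 7 astrocyte markers in each library, with wild type in blue and null in orange. The sterol sums are highest in wild type replicates 1 and 2 and the marker sums lowest there, and wild type replicate 3 has the lowest sterol sums and the highest marker sums of the 6 libraries.

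Per kilobase of gene length the order of levels was Hmgcs1 (533 CPM per kb as a mean over the 6 libraries), Insig1 (159), Sqle (112), Fdps (70.0), Lss (68.1), Srebf2 (40.1), Fdft1 (38.7) and Idi1 (23.9). Hmgcs1 stood at the 99.6th percentile of tested genes and Idi1 at the 78.5th. Fdps and Lss had overlapping ranges in wild type (58.9 to 84.3 and 64.2 to 76.0 CPM per kb), as had Srebf2 and Fdft1 (37.9 to 44.6 and 38.0 to 42.6), so these neighbours were not separated, whereas Hmgcs1, Insig1 and Sqle were separated from each other in both groups. Of the summed level per kb, Hmgcs1 made up 50.1% ± 0.88 in wild type and 52.0% ± 0.98 in null, Insig1 16.1% ± 1.4 and 14.2% ± 0.31, and Idi1 2.19% ± 0.052 and 2.40% ± 0.093 (SD, n = 3).

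Over the 6 libraries all 28 pairs of the 8 genes were positively correlated in log2 CPM, with Pearson's r from 0.22 (Idi1 and Fdft1) to 0.99 (Sqle and Insig1) and a median of 0.69. Srebf2 and Fdft1 went together (r = 0.93), and so did Insig1 with Fdps (0.93), Hmgcs1 (0.92) and Lss (0.88), while Srebf2 was only loosely related to Idi1 (0.25) and Hmgcs1 (0.27). These are descriptions over 6 libraries that share scaling and the split within wild type. Outside the lists used here, the tested genes most like the mean standardised profile of the 8 were Psmb3, a proteasome subunit (r = 0.999), Akt1, a kinase (0.997), Csnk2a2, a casein kinase subunit (0.997), Tubb5, a beta-tubulin (0.992), and Pcif1, an RNA cap methyltransferase (0.9904).

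The other enzymes of the pathway showed differences of a similar size. Of 14 further sterol enzymes, all tested, none passed the edgeR test and none had an unadjusted p under 0.05, while 13 of 14 log2 fold changes were below 0, with a median of -0.12 (range -0.26 to 0.10). Null lay below wild type without overlap for 5 of the 14 and above it for 1. Over all 33 sterol genes other than the 8, null lay below for 10 and above for 2. Among all tested genes null lay below in 10.6% and above in 1613 of 14207. The smallest p values in the list were those of Nsdhl, which removes methyl groups from sterol rings (-0.15 ± 0.07), Msmo1, which oxidises them (-0.26 ± 0.13), and Mvd, the mevalonate diphosphate decarboxylase (-0.12 ± 0.06). Msmo1 had 405, 391 and 278 CPM in wild type replicates 1 to 3 and 292, 302 and 302 CPM in null replicates 1 to 3. As for Hmgcs1, its null libraries lay between wild type replicate 3 and the other wild type libraries, and it passed the edgeR test when wild type replicate 3 was left out (-0.42, adjusted p = 2.88e-06) but not with the sample-name term (0.10, adjusted p = 0.50). Without wild type replicate 3, 6 of the 14 fell and 0 rose, against 19.4% of all genes lower and 19.7% higher in that fit, and with the sample-name term 0 passed.

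In the machinery that activates SREBP-2, Scap, the proteases Mbtps1 and Mbtps2, Insig2 and Srebf1 all stood close to 0, from -0.14 to -0.018. None of these 5 passed the edgeR test or had an unadjusted p under 0.05, and none passed without wild type replicate 3, where 39.2% of all genes did. Insig2, the second retention protein, had 16.4, 16.1 and 17.6 CPM in wild type replicates 1 to 3 and 14.9, 16.4 and 14.3 CPM in null replicates 1 to 3, with overlapping groups. Mbtps2 (-0.14 ± 0.07) and Srebf1 (-0.085 ± 0.061), which drives fatty acid synthesis, had groups that did not overlap, with null below wild type as in 10.6% of all tested genes. Of 7 genes for the turnover of sterol enzymes, none passed, and 1 had an unadjusted p under 0.05, against 18.6% of all tested genes. It was the ubiquitin ligase gene Rnf139 (-0.17 ± 0.06). Faf2 (0.11 ± 0.07), an adaptor of protein degradation, and Vcp (-0.10 ± 0.08), an ATPase that extracts proteins from the membrane, came next.

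Among 7 genes of sterol uptake and transport, none passed the edgeR test, and 3 had an unadjusted p under 0.05, against 18.6% of all tested genes. Of the 7 log2 fold changes 4 were below 0 and 3 above. Scarb1, a lipoprotein receptor gene, had the smallest p value of the listed sterol genes. It had 137, 130.2 and 121 CPM in wild type replicates 1 to 3 and 107, 103 and 110.2 CPM in null replicates 1 to 3. All 3 wild type libraries lay above every null library, with replicate 3 the lowest of them. The log2 fold change was -0.28 ± 0.07 (95% interval -0.43 to -0.12, adjusted p = 0.128, edgeR), a level 1.21-fold higher in wild type. Scarb1 was called by DESeq2 (adjusted p = 0.0222), by limma-voom with sample quality weights (-0.32, adjusted p = 0.00089) and without wild type replicate 3 (-0.33, adjusted p = 0.00011). With the sample-name term its log2 fold change was -0.18 (adjusted p = 0.276). Over the 16 alternatives its adjusted p ran from 0.00011 to 0.501.

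Npc2, a lysosomal sterol carrier gene, had 221, 206 and 158.9 CPM in wild type replicates 1 to 3 and 146, 158.8 and 154 CPM in null replicates 1 to 3. Wild type replicate 3 lay just above the highest null library, and wild type replicates 1 and 2 far above it. The log2 fold change was -0.35 ± 0.11 (adjusted p = 0.202, edgeR), with -0.48 without wild type replicate 3 (adjusted p = 2.32e-06) and -0.054 with the sample-name term (adjusted p = 0.806). Vldlr, a receptor gene for lipoproteins and reelin, stood at -0.19 ± 0.08 (adjusted p = 0.268), with overlapping groups. The 3 genes above 0 were Lrp1, a lipoprotein receptor gene (0.38 ± 0.17), Lipa, the lysosomal acid lipase gene (0.28 ± 0.14), and Npc1, which exports sterol from lysosomes (0.070 ± 0.103), named after their values were seen. Without wild type replicate 3 these 3 rose and Scarb1 and Npc2 fell, in a fit that called 19.7% of all genes higher and 19.4% lower in null. Lrp1 was at 0.62 in that fit (adjusted p = 1.27e-07, edgeR). With the sample-name term 0 of the 7 passed, against 1.31% of all genes, and Lrp1 was -0.033.

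**Figure D4:**
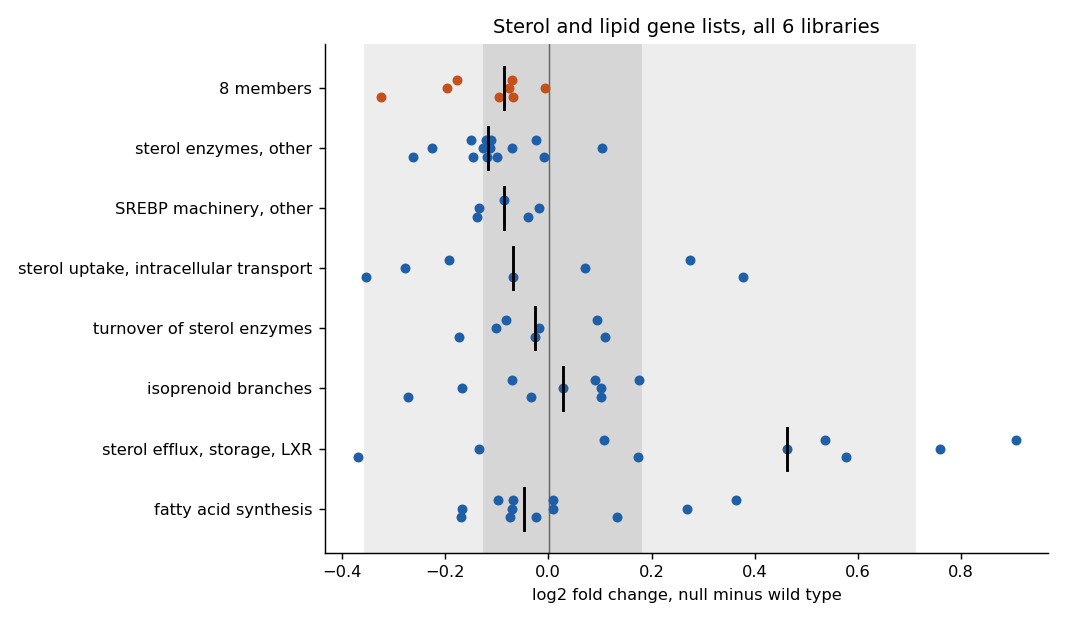
Log2 fold change (null minus wild type, x axis) of each tested gene in 8 lists in the edgeR fit of all 6 libraries, with the 8 cholesterol genes in orange and the median of each list as a black bar. The dark and light grey bands hold the middle 50% and 90% of all tested genes, and the cholesterol genes and the other sterol enzymes lie inside the light band.

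Branches off the pathway and other lipid genes did not pass either. Of 9 isoprenoid branch genes, none had an unadjusted p under 0.05, and the smallest p values belonged to Pdss2 (-0.27 ± 0.13) and Pdss1 (0.18 ± 0.11), which make the ubiquinone tail, and Ggps1 (-0.17 ± 0.11), the geranylgeranyl diphosphate synthase. Of 12 fatty acid synthesis genes, 2 had an unadjusted p under 0.05, against 18.6% of all tested genes. They were Acss2 (-0.17 ± 0.07), an acetyl-CoA synthetase, and Me1 (0.27 ± 0.12), the malic enzyme that supplies NADPH. Acly (-0.17 ± 0.09), the ATP citrate lyase, came next. The median of that list was -0.046.

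Most genes of sterol efflux and storage went the other way from the synthesis genes within wild type. Of 12 listed, 9 were tested, with a median log2 fold change of 0.46. None of the 9 passed the edgeR test, and 2 had an unadjusted p under 0.05, against 18.6% of all tested genes. The smallest p values were those of Nr1h2, a sterol-sensing nuclear receptor gene (-0.37 ± 0.11, adjusted p = 0.166), Abcg4, a sterol transporter (0.91 ± 0.33), and Soat1, which esterifies cholesterol (-0.13 ± 0.07). Of the 9, 8 were higher in wild type replicate 3 than in replicates 1 and 2, against 7257 of 14207 tested genes. The median difference over the 9 was 1.06 on the log2 scale. Some had few counts, among them Abcg4 (59, 46 and 50 in wild type replicates 1 to 3), Nr1h3 (12, 17 and 14) and Mylip (28, 18 and 11). In raw counts replicate 3 was not the highest wild type library for any of these named genes. The comparison above uses levels scaled to effective depth, which was lowest in replicate 3. With the sample-name term the median of the list turned to -0.29, and without wild type replicate 3 it was 0.94, with 6 of 9 genes called higher and 1 called lower in null, against 19.7% and 19.4% of all genes in that fit.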

How the data were processed

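Counts per gene in 6 libraries (single reads, TruSeq RNA v2 kit from 1 µg total RNA, unstranded) were deposited as raw counts with an Entrez ID and a gene length, per the file headers. The submitters' processing notes name featureCounts, CASAVA 1.8.2, limma 3.22.0 and edgeR 3.8.2, with mm10 as the build, while aligner and annotation are not given in sources used here. Symbols, coordinates and promoters came from RefSeq tables of GRCm38.p6, which matched 25275 of 27179 IDs.

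Counts were fitted with edgeR 4.0.16 in R 4.3.3 (filterByExpr, TMM, robust quasi-likelihood, genotype as the only term), and p-values were adjusted over 14207 genes. Standard errors were derived from fold changes and F statistics, and intervals at 95% from the moderated degrees of freedom. CPM is counts scaled to a TMM-adjusted library of 1 M. Correlations used log2(CPM + 0.5). Alternatives used DESeq2 1.42.0, limma-voom (limma 3.58.1) with and without quality weights, other scalings and filters, the replicate block, a term for sample names numbered above 100 against 11 to 14, and leaving out each library. The edgeR test was tested on simulated data. Libraries of a group differed by more than counting noise, with a median chi-square per gene after TMM scaling of 0.842 to 1.13 between libraries other than wild type replicate 3 and of 3.24 and 3.31 between that replicate and the other wild type libraries (76.8 and 81.0 with scaling by total counts), against 0.455 from counting noise alone. Intervals cover neither separate derivations nor duplicate reads, which were not marked.

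The members and lists were chosen with earlier results of these data known. Named genes were the 8 members, Smchd1, the 3 smallest p values and any called gene of each pathway list, and the 5 tested genes most like the members. Other genes were named after their values were seen. Some genes of the lists are not reported here and were left out of their counts, medians and sums.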

Additional observations from a re-analysis of the deposited data

How the results depend on the processing

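Of 16 alternatives, 14 left the number of called cholesterol genes at 0. It was 3, all lower in null, with limma-voom quality weights. That fit called 36.4% of all genes, with 2468 of 14207 called lower in null. Leaving out 1 library gave 0 to 4, the 4 coming without wild type replicate 3, where 39.2% of all genes were called. All 4 were lower in null, against 19.4% of all genes called lower in that fit. Their median log2 fold change was 0.044 with the sample-name term and 0.042 in the libraries named 11 to 14 only, a setting chosen after seeing the data, and -0.15 to -0.036 with 1 library left out. With the sample-name term the direction turned for Hmgcs1 (0.11), Idi1 (0.20), Fdps (0.16), Lss (0.051) and Insig1 (0.036), and in the libraries named 11 to 14 for Hmgcs1 (0.10), Idi1 (0.20), Fdps (0.16), Lss (0.050) and Insig1 (0.035). Idi1 also turned with the stricter filter (0.013) and the replicate block (0.0042), and ran from -0.095 to 0.083 with 1 library left out. In both settings that turned several genes the genotype contrast comes from wild type replicate 3 against the null libraries, and the cause was not tested. Without wild type replicate 3, genotype and sample-name number coincide, so they cannot be told apart in that fit.

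Among the 33 other sterol genes 1 was called by DESeq2 (Scarb1) and 12 with quality weights, against 2.82% and 36.4% of all genes. With 1 library left out 0 to 15 were called, the 15 without wild type replicate 3, where 39.2% of all genes were called. Of the 15, 11 were lower and 4 higher in null, against 19.4% and 19.7% of all genes in that fit. Among the 30 tested genes of the other lipid lists 11 were called with quality weights, against 36.4% of all genes. With 1 library left out 0 to 14 were called, the 14 again without wild type replicate 3, with 6 lower and 8 higher in null. In the libraries named 11 to 14, with 1 wild type library, the log2 fold change was -0.79 for Abcg1 and -0.51 for Nr1h2. Over all genes the count of 82 became 401 with DESeq2, 127 with limma-voom, 5168 with quality weights, 222 without a filter, 28 with the stricter filter, 186 with the sample-name term, 376 in the libraries named 11 to 14, and 30 to 5676 with 1 library left out (39 and 45 without wild type replicate 1 or 2, and 5676 without wild type replicate 3). The replicate block gave 54 genes and changed no call among the sterol genes. Same-numbered libraries showed no sign of deviating together (r = 0.0012, 0.018 and -0.056 for numbers 1, 2 and 3). With 3 libraries per group, and wild type replicate 3 standing apart, these values cannot exclude a pairing by number. Scaling moved the median over all genes by less than 0.01 on the log2 scale. Counting error was at most 4.08% of a value for the 8 cholesterol genes and larger for genes near 1 CPM, such as Nr1h3 (0.465 to 1.45 CPM).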
